A study of Mus musculus with 4 samples.

Results

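The regions described here are narrow H3K36me3 peaks of C57BL/6J (B6) male germ cells that lie outside protein-coding genes and have no counterpart in germ cells of a Prdm9 knock-in strain. They were chosen by the peak calls themselves, that is by position and not by sequence. A refined B6 peak on an autosome was taken when it overlapped by 1 bp or more no refined peak and no broad region of the knock-in strain and no protein-coding gene of the GENCODE vM1 annotation of mm9. This left 8023 B6-specific peaks outside genes, of 54236 autosomal refined B6 peaks and of 131194 refined peaks in the lists of both strains. They are called B6-specific below because they were absent from the knock-in lists, which is a property of peak calls and not of measured signal. Other peaks of either strain that met no interval of the other strain are called B6-specific or KI-specific in the same way.

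H3K36me3 ChIP-seq was carried out on isolated germ cells of B6 mice and of B6.Cg-Prdm9<tm1.1Kpgn>/Kpgn (KI) mice. The KI strain carries the B6 genome, but exon 11 of Prdm9, which encodes the zinc finger array, was replaced by that of the CAST/EiJ allele. ChIP samples were labelled 14 dpp and the input samples 15 dpp. Both biological replicates of a strain were merged before peak calling, so each strain was represented by 1 refined and 1 broad list, and no value below has a replicate error. The lists give positions with no height, score or read count, so nothing is known of the depth or strength of a single peak. By the study's methods the merged KI reads outnumbered the merged B6 reads. Animals of neither strain lacked PRDM9, so the lists compare strains with different alleles and do not show what is lost without the protein. Allele, read number and cell types among the samples cannot be told apart as sources of a difference between the lists. The labels call the cells spermatocytes and the study also calls them germ cells, and an interval in a list can come from any cell type among them. Chromatin was cut with micrococcal nuclease, which digests the linker DNA between nucleosomes, so fragments follow nucleosomes.

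PRDM9 binds DNA through its zinc finger array at meiosis and places H3K4me3 and H3K36me3 on the flanking nucleosomes, which marks the sites where programmed double-strand breaks can form. The zinc finger array sets which sites are bound, so alleles with divergent arrays use different hotspots. H3K36me3 is otherwise laid down mainly by SETD2 along the bodies of transcribed genes, which is why peaks away from genes are of interest for the PRDM9-dependent mark.

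The sequence at the peaks was not used to select them, and it is shown first because the main result turns on it. A position weight matrix was learned in 400 bp windows at the middles of B6-specific peaks outside genes on odd-numbered autosomes, against KI-specific peaks outside genes, and was then counted on even-numbered autosomes. Its preferred letters were AGATGNTGCTGCC, where N stands for any base. In the matrix the G at position 5 was held in 98.7% of the weighted sites and that at position 2 was as firm, the C at position 9 was held in 92.4% and the T at position 7 in 91.1%. Positions 3, 4, 6, 8 and 11 were loose, with the preferred base at 53.9%, 54.3%, 50.7%, 55.6% and 57.5%. At positions 4, 8 and 11 the rest was mostly A (42.9%, 40.5% and 38.3%), so an A there weighs little in the score. Other bases could be rare even at loose positions, such as C at position 4 (0.107%) and T at position 3 (0.402%). A mismatch to a rare base weighs more. The 6 sites of highest matrix score among the even-numbered autosomes searched for examples are given below from mm9, 5′ to 3′ on the strand of the match, with the 13 letters of the motif in capitals and 20 bases on each side. They are shown so that the fit to the preferred letters can be read directly. The score was taken over all 30 columns of the matrix, so bases beside the 13 letters also set the rank.
chr10:48442103-48442155 (+): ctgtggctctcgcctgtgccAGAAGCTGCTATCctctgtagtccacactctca
chr16:21027800-21027852 (-): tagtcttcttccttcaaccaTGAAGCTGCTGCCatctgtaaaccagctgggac
chr12:29009954-29010006 (-): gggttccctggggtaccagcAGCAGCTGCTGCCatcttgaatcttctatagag
chr2:159022098-159022150 (-): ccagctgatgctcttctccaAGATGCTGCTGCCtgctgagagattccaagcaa
chr2:150605244-150605296 (+): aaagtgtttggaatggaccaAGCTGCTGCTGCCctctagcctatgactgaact
chr16:31592751-31592803 (+): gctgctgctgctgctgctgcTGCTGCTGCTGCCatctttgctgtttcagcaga

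The match nearest to Dhx35, the fourth above, held all 12 fixed letters. The match near Pygb differed at 1, those on chromosomes 16 and 12 differed at 2 and that on chromosome 10 at 3. The last of the 6 lies at the end of a run of CTG repeats, so the same letters recur beside it. The nearest gene was Grik2, which encodes a kainate receptor subunit, for the chromosome 10 peak at a gap of 376.9 kb. It was Dhx35, a DEAH-box helicase gene, at 338.2 kb and Dcdc2c at 112.4 kb for the peaks on chromosomes 2 and 12. The others lay 70.7 kb from Dlg1, which encodes a scaffold protein of cell junctions, 34.6 kb from Gm6557 and 7.12 kb from Pygb, the gene of brain glycogen phosphorylase. The nearest KI interval was between 5.02 kb (Pygb) and 136.2 kb (Grik2) away. In 5 of the 6 the motif lay 84 to 129 bp from the middle of the refined peak, and in the Dcdc2c peak it lay 12 bp from it.

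One whole example is given to show how motif and peak lie to each other. The refined peak chr10:48442179-48442322 was 144 bp wide, and its motif lay outside it, 121 bp from its middle. The stretch chr10:48442108-48442322, read on the forward strand of mm9 with the motif in capitals, runs from shortly before the motif to the far edge of the peak.
chr10:48442108-48442322 (+): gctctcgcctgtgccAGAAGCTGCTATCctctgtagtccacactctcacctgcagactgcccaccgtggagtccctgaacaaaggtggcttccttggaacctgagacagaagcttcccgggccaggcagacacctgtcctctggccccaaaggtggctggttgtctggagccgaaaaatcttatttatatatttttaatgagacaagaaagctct

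Peaks outside genes matched the KI lists less often than B6 peaks at large. Of all autosomal B6 refined peaks, 43.3% met no KI interval. Of the 12544 outside genes it was 64.0% (Wilson 95% interval 63.1% to 64.8%), and of the 41692 inside genes it was 37.1%. Another 2880 peaks outside genes lay on a KI broad region only, and 1641 overlapped a KI refined peak. The KI list gave 12240 KI-specific peaks of 17929 outside genes (68.3%). The rule uses these overlaps, so the counts describe the choice of peaks and were not tested. All intervals here cover the counting of peaks and not the variation between animals.

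As the lists hold no expression, the labelled cell type was checked by the share of each marker gene that lay in broad regions. All 16 annotated spermatocyte markers, of 17 listed, were covered over at least 50% of their span in B6 and in KI, with a median of 96.7% in B6. Of 6 Leydig cell markers 4 were at 0 in B6 and 4 in KI, while Star was covered whole in both. Of 6 round spermatid markers 4 were at 0 in B6 and 3 in KI, and 2 in each strain were covered over at least 50%. Acrv1 was covered over 100% in B6 and 21.3% in KI, Prm2 over 0 in B6 and 100% in KI, and Spaca1 over 67.1% and 59.2%. Sertoli cell markers differed between the lists. Of 8 annotated Sertoli markers, of 9 listed, 6 were covered over a larger share in B6, 1 (Fshr) over a smaller share, and Inha was at 0 in both. Wt1 had the highest share of the list in either strain, 71.7% in B6 and 8.49% in KI, and 4 of the 8 were at 0 in KI against 1 in B6. The shares were 45.2% against 0 for Sox9 and 42.0% against 0.333% for Amh. Spermatogonium markers were covered more in B6 at 5 of 8 genes, equally at 2 (Sall4 and Nanos3) and less at 1 (Gfra1, 0 against 5.90%). The widest of these differences was that of Zbtb16, 69.1% against 37.2%, and Uchl1 had the smallest of the 5 that were higher, 94.2% against 89.7%. The part of other cell types in the B6-specific peaks was not tested. Of the 8023 peaks, 10 had a Sertoli marker as their nearest gene and 7 a spermatogonium marker. Another 6 had a round spermatid marker, 2 a spermatocyte marker and 0 a Leydig cell marker. These counts were not compared with other genes or with KI-specific peaks.

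The B6 motif was present in 1142 of 3861 B6-specific peaks outside genes on the even-numbered autosomes, a share of 29.6% (28.2% to 31.0%). A window counted as having the motif when its best site, on either strand, scored above the value that 5% of KI-specific windows passed on the odd-numbered autosomes. Of 173513 windows of the same length, 1 in 10 of those outside genes, 5.76% passed. In KI-specific peaks outside genes the share was 4.34% (3.84% to 4.89%, n = 5810). The difference was 25.2 percentage points (Newcombe 95% interval 23.7 to 26.8), a ratio of 6.82 (5.99 to 7.77). In sequence 2000 bp to the right and left of the same B6-specific peaks, the shares were 5.72% and 5.85%. The result rested on the window used for learning, since matrices learned anew in 200 and 1000 bp windows had other letters and ratios of 1.75 and 1.24. With the matrix above kept, the ratio was 2.30 in 200 bp and 6.60 in 1000 bp. A learning limit of 90% in place of 5%, which was the first version counted, gave 15.8% and a ratio of 3.64.

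The motif was rarer in every other class of B6 peak that was compared. B6 peaks outside genes that overlapped a KI refined peak had it in 6.96% (50 of 718), which was 22.6 points lower (20.1 to 24.8). Those on a KI broad region only had it in 8.27% (102 of 1233), 21.3 points lower (19.1 to 23.3). Inside genes, peaks on a KI broad region only had it in 9.92% (814 of 8208, 9.29% to 10.6%). B6-specific peaks inside genes had it in 14.0% (1071 of 7647), 15.6 points lower (13.9 to 17.2) than B6-specific peaks outside genes and above the 5.14% of KI-specific peaks inside genes. In 1000 bp windows, with the matrix kept, the shares were 31.8% in B6-specific peaks outside genes, 14.9% in those inside genes, 10.9% on a KI broad region only and 72 of 718 with a KI refined peak. With the limit set at 1% of KI-specific windows, 14.7% of the B6-specific peaks outside genes and 0.878% of the KI-specific ones passed.

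**Figure D1:**
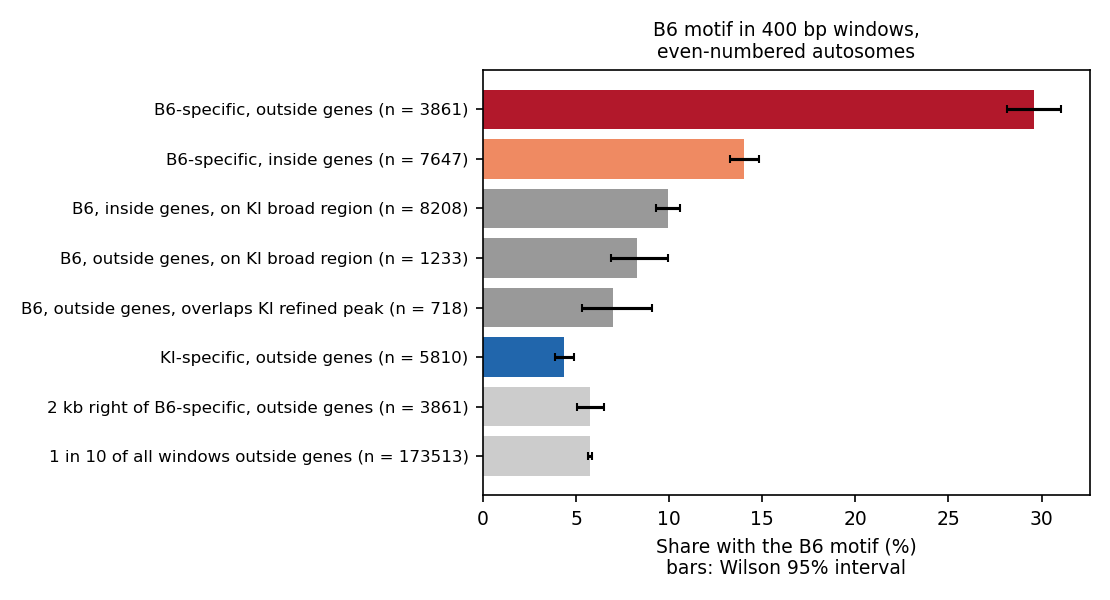
Share of 400 bp windows with the B6 motif (%, Wilson 95% intervals) on even-numbered autosomes, by class of refined peak and in control windows. B6-specific peaks outside genes stood at 29.6% and B6-specific peaks inside genes at 14.0%, while the other 6 bars lay between 4.34% and 9.92%.

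The KI strain served as the mirror comparison. A matrix learned the opposite way, on KI-specific peaks outside genes, preferred the letters GNCTNGGNNTGTGNCCNNT. It was found in 42.4% (41.2% to 43.7%) of KI-specific peaks outside genes on even-numbered autosomes and in 5.49% (4.82% to 6.25%) of the B6-specific ones. The limit of this matrix was set so that 5% of B6-specific windows passed on the odd-numbered autosomes. This matrix depended on a learning setting, and under a higher setting the share in KI-specific peaks was 4.94%.

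Exact letters were rare. All 12 fixed letters of AGATGNTGCTGCC, searched on both strands, occurred in 15 of 3861 B6-specific peaks outside genes (0.389%), in none of 5810 KI-specific peaks and in 0.0115% of the 173513 windows. With at most 1 mismatch the shares were 2.62%, 0.189% and 0.277%, and with at most 2 they were 11.8%, 3.25% and 4.62%. A match is a description of the letters in the window and was not tested as a bound site.

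The motif lay mostly to the side of the peak middle. Its density in B6-specific peaks outside genes was 1733 sites per Mb (exact Poisson 95% interval 1604 to 1869) at 100 to 150 bp from the peak middle, 927 (834 to 1028) at 150 to 200 bp, 401 (341 to 470) within 50 bp of it and 181 (168 to 195) at 500 to 1000 bp. In KI-specific peaks the same zones had 110, 139, 131 and 159 sites per Mb. Among the 1142 peaks with the motif, its median distance from the peak middle was 121.5 bp (exact binomial 95% interval 119 to 125) and its quartiles were 96 and 146 bp. In the 252 KI-specific peaks with a match the median was 83 bp (71 to 99). The 400 bp window bounds this distance, whereas the densities were counted over 2000 bp.

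**Figure D2:**
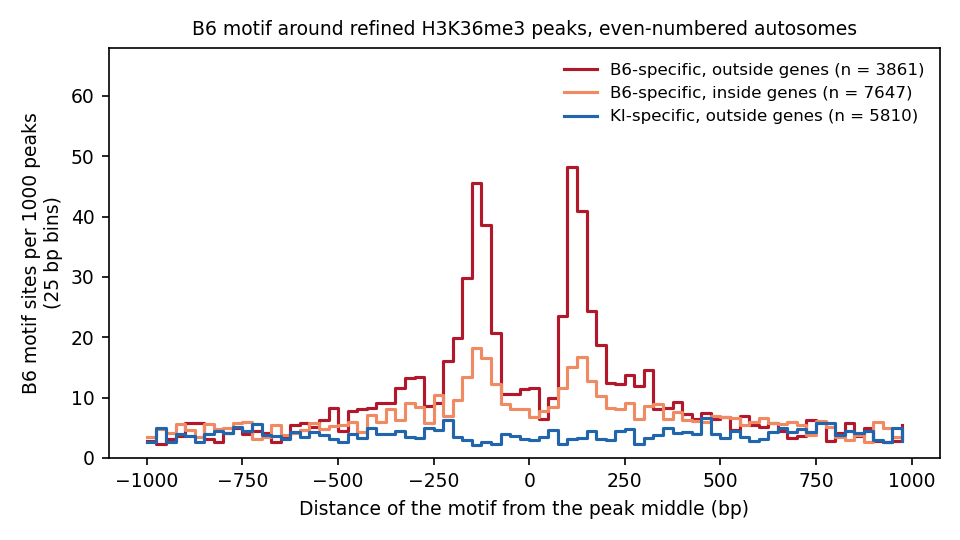
B6 motif sites per 1000 peaks in 25 bp bins against the distance from the middle of the refined peak (bp), on even-numbered autosomes. B6-specific peaks outside genes had a hump on either side of the middle, highest at 100 to 150 bp (1733 sites per Mb against 401 within 50 bp), while KI-specific peaks showed none.

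To use all autosomes, peaks on odd-numbered autosomes were scored with a matrix learned on even-numbered ones, whose letters were AGNNGNTGCTGCC. Over both sets 2548 of 8023 peaks had the motif (31.8%, 30.7% to 32.8%), with 33.8% on the odd-numbered autosomes. Of these 2548, the motif lay 100 to 150 bp from the middle in 51.8% (49.9% to 53.8%) and within 50 bp in 9.30% (8.23% to 10.5%). The middle of the motif lay within 40 bp of an edge of the refined peak in 63.0%, and in 85.3% (83.0% to 87.3%) of peaks from 250 to under 300 bp wide. It lay outside the refined peak in 35.6%. Only the 400 bp window was searched, so in peaks of 400 bp or more a motif outside the peak could not be found. Motifs near the edges of the widest peaks were missed in the same way.

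The peak lay to one side of the motif without preference for an end of it. On even-numbered autosomes it was on the 5′ side of the letters in 52.0% (49.0% to 55.1%) of 1034 peaks whose motif was 50 bp or more from the middle, and the letters read on the forward strand in 49.4% (46.5% to 52.3%) of 1142. A second refined B6 peak at the mirrored place on the other side of the motif was listed for 3 of 2311. Among neighbouring B6-specific peaks with middles at most 600 bp apart, 26 of 82 pairs had a motif in either peak, and in 16 of the 26 it lay between the middles. In broad regions of up to 5000 bp, the motif was a median of 122.5 bp (116.5 to 127.5) from the middle of the region and the refined peak 150.5 bp (144.5 to 158.5), with the motif nearer in 56.8% (54.9% to 58.8%) of 2518 peaks.

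How the motif share went with peak width depended on where the motif was searched. The median width of the B6-specific peaks outside genes was 294 bp (291 to 297), with quartiles at 252 and 463 bp and extremes of 99 and 2657 bp, and 54.1% were from 200 to under 350 bp wide. The motif was present in 45.5% (43.5% to 47.5%) of the 2318 peaks from 250 to under 300 bp, in 471 of 1177 peaks from 200 to under 250 bp and in 242 of 692 narrower ones. It was in 25.9% from 300 to under 400 bp and in 17.0% (15.0% to 19.2%) of 1247 peaks from 400 to under 600 bp. Peaks with the motif had a median width of 271 bp (269 to 273) and those without it 323 bp (316 to 328). The 400 bp window does not reach past the edges of peaks of 400 bp or more, where motifs near an edge are partly missed, so the lower shares there were in part set by the window. In 1000 bp windows, with the limit set again, the share was 38.6% (36.6% to 40.6%) from 250 to under 300 bp, 28.2% from 300 to under 400 bp, 29.8% (27.4% to 32.4%) from 400 to under 600 bp and 34.2% (29.8% to 38.9%) at 1000 bp or more. In a pair of 200 bp windows set on the edges, which keep the searched length at 400 bp, it was 46.9% (44.8% to 48.9%) from 250 to under 300 bp, 28.2% (25.8% to 30.8%) from 400 to under 600 bp and 54 of 415 at 1000 bp or more. KI-specific peaks stood between 4.36% and 5.65% in every width bin of both searches. The bin from 250 to under 300 bp was the highest in each search, but in 1000 bp windows its interval overlapped those of the bin from 200 to under 250 bp (435 of 1177) and of the widest peaks, and the share did not fall further beyond 300 bp.

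The share with the motif was higher far from protein-coding genes. It was 18.4% (13.7% to 24.2%) of 207 peaks less than 1 kb from a gene, 28.4% (26.6% to 30.2%) at 10 to 50 kb and 42.0% (245) of 584 peaks at 500 kb or more. Within 5 kb of a gene it was 25.1% of 533 peaks beside the 5′ end and 21.1% (18.2% to 24.3%) of 687 beside the 3′ end, whose intervals overlap. Among peaks from 250 to under 300 bp it was 54.3% at 50 kb or more from a gene and 37.9% nearer, and among peaks of 400 bp or more it was 20.6% and 15.2%. In 1000 bp windows it was 20.8% under 1 kb and 45.9% at 500 kb or more.

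**Figure D3:**
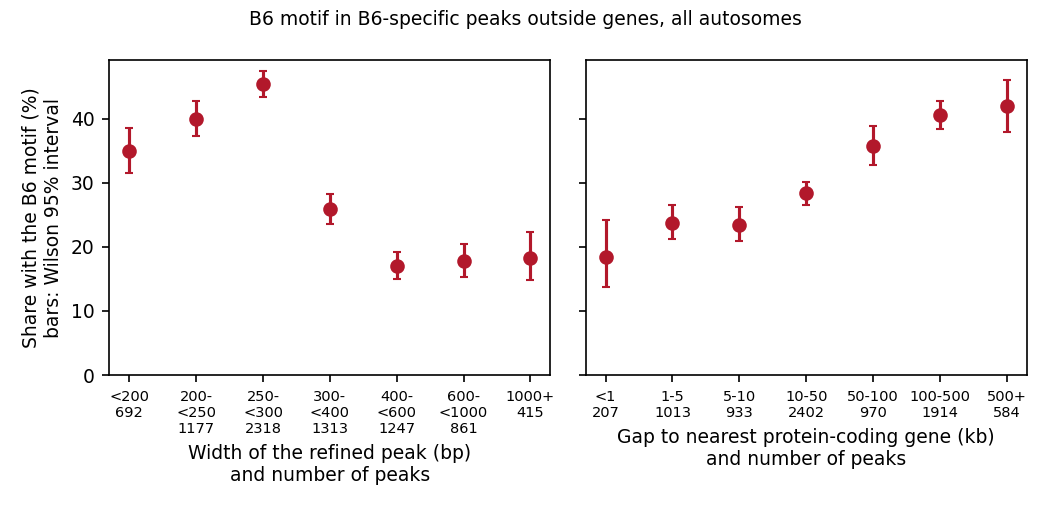
Share of B6-specific peaks outside genes with the B6 motif (%, Wilson 95% intervals, all autosomes), by width of the refined peak (bp, left) and by gap to the nearest protein-coding gene (kb, right), with the number of peaks under each bin. The share was highest from 250 to under 300 bp (45.5%), the bins of 400 bp or more being wider than the window searched, and rose from 18.4% under 1 kb to 42.0% at 500 kb or more.

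Peaks near KI intervals had the motif less often as well. The nearest KI interval was a median of 15253 bp away (14467 to 16153), and 9.04% of peaks had one within 1 kb. The motif was in 15.4% (112 of 725) of peaks with a KI interval within 1 kb and in 43.1% (39.9% to 46.4%) of the 879 with none within 100 kb. At least 50 kb from a gene it was in 42.0% of peaks with no KI interval within 10 kb and in 29.9% of the others. Nearer to a gene the motif was in 33.8% of 1947 and in 521 of 2608 peaks. Gap to gene, gap to KI interval and width overlap as properties of the peaks, and their parts were not told apart further.

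The share with the motif also went up with the width of the broad region around a peak, up to 5000 bp. Its median width was 2500 bp, and 84.4% of the peaks (83.6% to 85.2%) lay in regions of 2000 to 3000 bp, against 77.1% of KI-specific peaks outside genes and 55.1% of the B6 peaks that overlapped a KI refined peak. The motif was in 19.6% (18.2% to 21.1%) of the 2912 peaks in regions of 2000 bp, the smallest size called, in 33.6% at 2500 bp, in 41.7% at 3000 bp and in 46.1% (43.3% to 49.0%) of the 1149 at 3500 to 5000 bp. In wider regions it was lower again, with 30 of 100 peaks (21.9% to 39.6%). In 1000 bp windows it was 23.1% at 2000 bp, 45.4% at 3000 bp, 44.5% at 3500 to 5000 bp and 34.0% beyond. The peak was the only one of its class in its broad region in 94.4% of cases. The region reached a KI broad region for 7.80% of the peaks and a protein-coding gene for 2.84%.

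Base composition differed little between classes. The middle 400 bp of B6-specific peaks outside genes had a median GC content of 40.75% (40.75% to 41.0%), the same as the windows outside genes, against 42.0% in KI-specific peaks and 41.25% in B6 peaks that overlapped a KI refined peak. Sequence 2000 bp away had 42.0%. Peaks with the motif had 42.0% and those without it 40.25%, and from the lowest to the highest of 4 classes of GC content the share with the motif went from 23.4% to 39.5%. The share by GC content was not counted in KI-specific peaks or in the windows outside genes. Whether the rise is particular to these peaks was therefore not tested. The ratio of observed to expected CpG was 0.133 against 0.142 in the windows. Only 10 of the 8023 peaks had a GC content of at least 50% together with a CpG ratio of at least 0.6, a share of 0.125% (0.0677% to 0.229%) against 0.405% of windows, and none of those 10 had the motif.

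Peaks outside genes that were B6-specific lay farther from genes than B6 peaks with a KI counterpart. The gap to the nearest protein-coding gene was a median of 34691 bp (32745 to 36509), against 8845 bp (8101 to 9592) for B6 peaks that overlapped a KI refined peak and 45539 bp (43341 to 47345) for KI-specific peaks. Within 5 kb of a gene, 56.3% (53.5% to 59.1%) of 1220 B6-specific peaks lay beside the 3′ end. The share was 46.6% (44.0% to 49.2%) of 1419 KI-specific peaks and 50.6% (46.5% to 54.7%) of 569 B6 peaks with a KI refined peak. Over all gaps the 3′ end was the nearer one in 49.7% of B6-specific peaks.

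**Figure D4:**
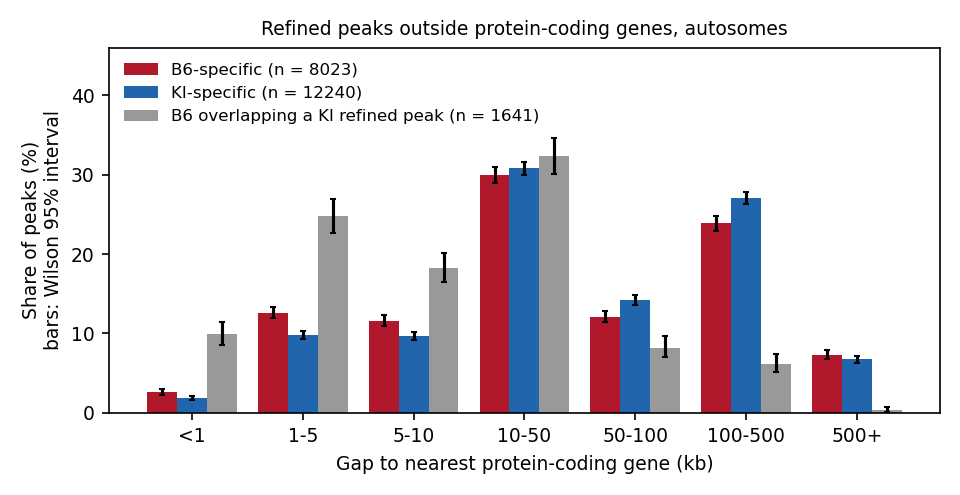
Share of refined peaks outside genes (%, Wilson 95% intervals) by gap to the nearest protein-coding gene (kb), for 8023 B6-specific, 12240 KI-specific and 1641 B6 peaks that overlapped a KI refined peak. The median gap was under 50 kb in each class. Gaps of 100 kb or more were more frequent among strain-specific peaks of both strains than among B6 peaks that overlapped a KI refined peak.

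Genes of types other than protein-coding held 486 of the 8023 peaks, a share of 6.06% (5.56% to 6.60%), where such genes make up 3.80% of the sequence outside protein-coding genes. The share was 5.07% in KI-specific peaks and 15.2% in B6 peaks with a KI refined peak. Genes of long intergenic noncoding RNAs (lincRNA) accounted for 293 peaks (3.65%, 3.26% to 4.09%, of 1.68% of the sequence), processed transcripts for 173 (2.16% of 1.66%) and pseudogenes for 25 (0.312% of 0.467%). The motif was in 22.2% (18.8% to 26.1%) of the 486 peaks in these genes and in 32.4% (31.3% to 33.4%) of the 7537 in no gene of any type. By type it was in 17.4% (51 of 293, 13.5% to 22.2%) of the peaks in lincRNA genes, in 27.7% (48 of 173, 21.6% to 34.8%) of those in processed transcripts and in 8 of 25 in pseudogenes.

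B6-specific peaks outside genes were found on every autosome, at 5.54 per Mb of sequence outside genes against 8.46 KI-specific peaks. Their density ran from 4.07 per Mb on chromosome 10 to 7.98 on chromosome 11. Over the 19 autosomes, which share 1 pooled list per strain, it went with that of KI-specific peaks (r = 0.83, rho = 0.67) and hardly with gene density (r = 0.25, rho = 0.039), which are descriptions over 19 points. The share with the motif is given within each set of autosomes, since each set was scored with its own matrix and limit. On even-numbered autosomes it ran from 25.1% (21.4% to 29.2%) on chromosome 4 to 38.7% (33.5% to 44.2%) on chromosome 10, and on odd-numbered ones from 27.5% (42 of 153) on chromosome 19 to 39.3% (34.0% to 44.8%) on chromosome 15. The last 10 Mb of the autosomes held 6.94% (6.41% to 7.52%) of the peaks and 7.12% of the sequence outside genes.

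**Figure D5:**
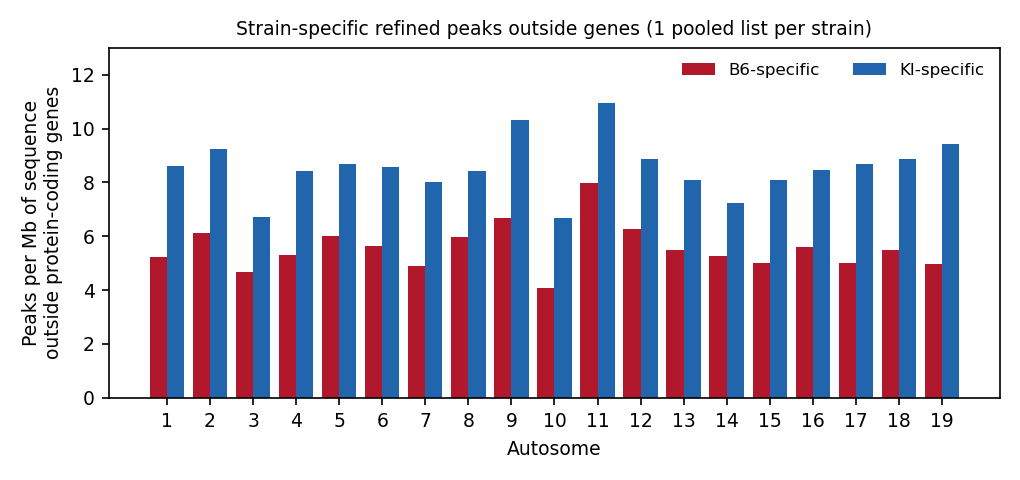
Strain-specific refined peaks per Mb of sequence outside protein-coding genes on each autosome, for B6-specific and KI-specific peaks (1 pooled list per strain, no replicate error). B6-specific peaks ranged from 4.07 on chromosome 10 to 7.98 on chromosome 11 and were fewer than KI-specific peaks on every autosome.

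Most peaks stood alone. The nearest other B6-specific peak outside genes was a median of 57939 bp away (55059 to 60642), and 8.08% (7.50% to 8.69%) of the peaks had one within 2000 bp. Those had the motif in 11.1% (8.92% to 13.8%), against 33.6% (32.5% to 34.7%) of the others. The peaks had 4359 different protein-coding genes as nearest gene, of 21418 on the autosomes, and 2654 of these were nearest to 1 peak.

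A few places held many peaks, and the motif was less frequent in dense windows. It was in 21.4% (18.7% to 24.4%) of the 808 peaks in 1 Mb windows of 10 or more, in 31.3% (29.8% to 32.8%) at 5 to 9 per window and in 34.5% of 3685 at fewer. The span between Gm11639 and Efcab3 (chr11:104637689-104924905), the latter an EF-hand protein gene, held 45 B6-specific peaks and 1 KI-specific peak. B6 broad regions covered 60.9% of it and KI broad regions 21.2%, and 7 of the 45 peaks (15.6%) had the motif. It accounts for most of the 49 peaks in the window chr11:104000001-105000000, the densest of all 1 Mb windows, whose mean was 3.23. Gm11639 was the nearest gene of 25 peaks, 24 of them beyond its 3′ end, and Efcab3 of 21, all on its 5′ side.

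The next windows lay on chromosomes 4 and 13. The window chr4:89000001-90000000 held 24 B6-specific peaks and 5 KI-specific ones. Between Cdkn2b, which encodes an inhibitor of cyclin-dependent kinases, and Dmrta1 (chr4:88956942-89346126), none of 20 peaks had the motif and 9 lay in genes of other types. B6 broad regions covered 24.7% of that span and KI broad regions 17.0%. The window chr13:28000001-29000000 held 23 peaks, of which 19 lay in genes of other types and 4 had the motif. Between Prl5a1, a prolactin family gene, and Sox4, which encodes an HMG-box transcription factor, B6 broad regions covered 8.07% and KI broad regions 3.83%.

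The other genes that were nearest to the most peaks were 1700018B24Rik (16 peaks), the protocadherin gene Pcdh9 (15), Dsel (14), Nova1 (14), which encodes a neuronal splicing regulator, the zinc finger homeobox gene Zfhx3 (13) and 4921508M14Rik (12). Cdkn2b and Sox4 were nearest to 16 each. Most of these peaks lay far from the gene. The median gap was 517.8 kb for Pcdh9, 318.1 kb for Nova1, 253.1 kb for Dsel, 251.7 kb for Sox4, 124.8 kb for Cdkn2b and 121.8 kb for Zfhx3. The motif was in 8 of the 14 peaks with Nova1 as nearest gene, in 5 of 15 with Pcdh9 and in 4 of 14 with Dsel. It was in 3 of 13 with Zfhx3, in 4 of 16 with Sox4 and in none of 16 with Cdkn2b. KI-specific peaks nearest to the same genes numbered 13 for Zfhx3, 11 for Nova1, 9 for Pcdh9 and 1 for Cdkn2b, so these neighbourhoods differed in how one-sided they were.

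Gene families took small shares of the peaks. Within 100 kb of an Olfr gene, which encode odorant receptors, lay 146 peaks (1.82%, against 1.60% of KI-specific peaks), and within 100 kb of Vmn genes, which encode vomeronasal receptors, lay 55 (0.686% against 0.825%). Zfp genes had 304 (3.79%, 3.39% to 4.23%, against 2.91%, 2.63% to 3.22%), and 9.08% of the B6 peaks with a KI refined peak. Hox genes had 5, Pcdh 12, Cdh 19, Sox 17, Fox 29, Defb 9, Cyp 50, Kcn 78, Grm 6 and Gpr 67, each under 1% of the peaks.

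The 5 widest peaks were picked by width alone. The first was chr10:20093308-20095964 (2657 bp), 11.8 kb from Fam54a. It was followed by chr5:90799788-90802000 (2213 bp) near Gm9958 and chr12:36773694-36775901 (2208 bp) near Tspan13, which encodes a tetraspanin. The next were chr17:37291999-37294166 (2168 bp) near the odorant receptor gene Olfr93 and chr9:67847502-67849612 (2111 bp) near Vps13c. All 5 lay within 12 kb of a gene, and the motif was present in the middle 400 bp of those on chromosomes 10 and 17. The peak on chromosome 5 touched a KI interval (gap of 0 kb), and that on chromosome 9 lay 0.501 kb from one. The gap to a KI interval was 4.31 kb on chromosome 10, 52.6 kb on chromosome 12 and 72.0 kb on chromosome 17.

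At the limits of the rule, small shifts of a call decide the class. The peak chr4:41071501-41071786 near Nol6 touched a KI interval with 0 bases between and was kept, and chr5:145207634-145207887 lay 7 bases from Bri3 and was kept. Left out were a peak of 223 bp near Fermt1 on chromosome 2 that overlapped a KI broad region by 1 bp, a peak of 544 bp near Dnahc7c on chromosome 1 that overlapped a KI refined peak by 1 bp and a peak of 376 bp that overlapped Klhdc7a on chromosome 4 by 2 bp. Of the peaks kept, 86 had a KI interval within 100 bp and 22 a protein-coding gene within 100 bp.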

How the data were processed

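The authors immunoprecipitated H3K36me3 from MNase-digested chromatin of B6 and KI spermatocytes and sequenced 1 input per strain. They kept uniquely placed reads on mm9 (BWA 1.2.3), merged the biological replicates of each strain and called broad regions and refined peaks with ZINBA against the input. The deposited lists, 2 per strain, give only chromosome, start and end. The characteristics of the ChIP samples name the antibody H3K36me6 where the titles give H3K36me3. Starts of all broad regions fell on steps of 500 bp plus 1, which set the first base of a region as 1-based and its last as included, and repeated regions were used once.

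Overlaps were computed in Python 3.11.15 (numpy 2.4.6, pandas 2.3.3), and the number of peaks was checked with bedtools 2.31.1. Genes and sequence came from GENCODE vM1 and the mm9 assembly. The members and lists were chosen with earlier results of these data known. The matrix of 30 columns was grown from 10-mer seeds by expectation maximisation, 5 seeds and 30 rounds, on both strands of 400 bp windows. The share of windows assumed to hold a site was limited to 5% while learning. A first version with a limit of 90% had been counted on the even-numbered autosomes before this limit was chosen, among 4 tried, by the share of learning windows found. Motif limits were the scores passed by 5% or 1% of the opposite strain's learning windows. Shares have Wilson, differences Newcombe, medians exact binomial and densities exact Poisson 95% intervals (scipy 1.17.1). The code was tested on simulated data. Figures were drawn with matplotlib 3.10.9.

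Regions were named by rule: the 5 widest peaks, the 6 of highest matrix score on even-numbered autosomes other than 18, the peaks at the limits of the rule and the 3 densest 1 Mb windows, with their nearest genes and the 10 genes nearest to the most peaks. Families were counted by symbol prefix within 100 kb. Bins of width, gap, broad region and GC content, the distance zones, the spans between genes and the coverage limit of marker genes were set after the data were seen. Alternatives changed the gene set, gene spans, overlap, use of broad regions, width, merging, window, motif limit, learning chromosomes and learning limit. With 1 pooled list per strain, no test between strains and no analysis without a replicate could be made. The study's hotspot lists, H3K4me3 and RNA-seq data were not used here.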

Additional observations from a re-analysis of the deposited data

Results flagged for a closer look

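The X chromosome lay outside the rule, and 1 signal there was singled out. B6-specific peaks outside genes on X had the B6 motif in 19.0% (156 of 820, 16.5% to 21.9%), above the 4.34% (31 of 714, 3.08% to 6.10%) of KI-specific peaks there and the 5.76% of autosomal windows outside genes. The KI motif was in 4.88% of these B6-specific peaks and in 31.7% of the KI-specific ones. The autosomal share was 29.6%, and the difference between X and the autosomes was not tested.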

How the results depend on the processing

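Of 55 alternatives, 20 left the value inside its 95% interval (counts within 1.5 times) and 35 moved it further. Some alternatives measured another quantity, such as the last 5 or 20 Mb in place of 10 Mb. Their move was built in, so the tally is not a measure of robustness. A reversal of direction was scored only for the ratio of motif shares, where none was found, and could not be scored for the other results. The matrix limits of 15%, 30% and 90%, the kept matrix, the dropped dense windows and the other windows searched by peak width were chosen after seeing the data. With peaks of at least 300 bp the number of B6-specific peaks outside genes was 3836, their share of B6 peaks outside genes 60.4%, the share with the motif 15.5%, its ratio to KI-specific peaks 3.98 and the median gap to a gene 30.8 kb. The share that met no KI interval was 66.0% with genes of every type, 70.0% with gene spans extended by 5 kb, 61.0% with a gap of 500 bp allowed and 86.9% against KI refined peaks alone.

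The motif was sensitive to the window. A matrix learned anew in 200 bp windows preferred CA repeats and one learned in 1000 bp windows also had other letters, with shares of 8.08% and 5.96% and ratios of 1.75 and 1.24. With the matrix kept, the share was 9.45% (ratio 2.30) in 200 bp and 31.8% in 1000 bp, and in 1000 bp or at the edges the share in peaks from 400 to under 600 bp wide went from 17.0% to 29.8% and 28.2%. The limit of 1% gave 14.7% (ratio 16.7), and exchanging the learning and counting chromosomes gave 33.8% (ratio 5.54). Learning limits of 30% and 90% gave 26.9% and 15.8%, the latter with a ratio of 3.64 and a median distance of 118 bp, and one of 15% took the KI motif in KI-specific peaks from 42.4% to 4.94%.

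The share in or near genes of other types was 7.20% within 1 kb. The median gap to a gene of any type was 18.7 kb. The last 5 and 20 Mb held 4.05% and 14.7% of the peaks, GC content over 1000 bp was 41.1%, and 4.75% and 15.4% had another peak within 1000 and 5000 bp. The planned share of repeat bases was not run because the reference holds 0 lower-case bases. No paired analysis was possible because each strain has 1 pooled list. Peaks with no depth or height cannot be weighted by reliability, and absence from the KI lists is not absence of the mark.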
